A study of Mus musculus with 10 samples.

Results

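The genes described here are 57 members of the Wnt signalling system: 17 ligands, 12 receptors and coreceptors, 9 R-spondins, Lgr receptors and membrane ubiquitin ligases, 11 secreted or membrane antagonists, and 8 transducers, feedback targets and transcription factors. They were matched by symbol, without a filter on measured values, and all 57 were found among the 21729 genes of the authors' protein-coding table. The list was chosen with earlier results of these data known. RNA was sequenced from mouse digit tip blastema, the tissue that grows at the stump after an amputation through the tip of the digit. The mice were wild type or ΔLARM1/2, a deletion of enhancers that drive the dorsal limb gene Lmx1b, and the study's title concerns failed tip regeneration without Lmx1b. All animals were of a mixed CD1 and C57Bl/6 background. The groups were wild type at 12 days post amputation (dpa; age 33 days, 2 libraries), ΔLARM1/2 at 12 dpa (33 days, 3 libraries), wild type at 14 dpa (35 days, 2 libraries) and ΔLARM1/2 at 14 dpa (35 days, 3 libraries). Each library pooled 6 amputated central hindlimb digits, and ΔLARM1/2 animals are called mutants below.

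Wnt ligands are secreted lipid-modified proteins that bind Frizzled receptors with the coreceptors Lrp5 and Lrp6, which stabilises β-catenin and lets it act with Tcf and Lef factors at target genes. R-spondins bind Lgr receptors and remove the ubiquitin ligases Rnf43 and Znrf3, which otherwise clear Frizzleds from the membrane, while Sfrp, Dkk, Wif1 and Notum proteins hold the signal back outside the cell. In the digit tip the pathway is known for its role in the nail epithelium, where Wnt activity accompanies nail differentiation and regrowth of the bone beneath it.

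Libraries held 69998104 to 101632364 expected counts. Lmx1b, whose enhancers were deleted, stood at 1.69 to 2.94 CPM (counts scaled to library size) in the 4 wild type libraries and at 0.0278 to 0.336 CPM in the 6 mutants, without overlap. One mutant library, 14 dpa replicate 1, has a genotype tag that says wild type, against its own title and description; it was kept as mutant. The wild type 14 dpa libraries had the lowest shares of TPM, a unit scaled by gene length, in protein-coding genes. These were 27.7% in replicate 1 and 33.6% in replicate 2, where the other groups ran from 42% to 52.8%. At 14 dpa a low share therefore went with the wild type group. Each group had 1 female library, and sex was entered as a covariate in an alternative fit.

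Markers of several cell types differed between the genotypes. Summed over 11 keratinocyte markers, levels were 43316 to 66089 CPM in the wild type libraries and 68295 to 142010 CPM in mutants, with 9 of 11 higher. Most of this sum was Krt1 and Krt10, at means of 16722 and 16787 CPM in wild type and 23634 and 35212 CPM in mutants. Krt1 (log2 fold change 0.46, adjusted p = 0.182 by edgeR) and Sfn (0.24, adjusted p = 0.0935) did not pass. The 11 nail matrix and hard keratin markers found summed to 22699 to 57873 CPM in the wild type libraries and 1449 to 5223 CPM in mutants, with 10 of 11 lower. Most of the mutant sum was Krt36 (mean 2482 of 3067 CPM), the marker that did not pass (log2 fold change -0.13, adjusted p = 0.724 by edgeR). The other 10 ran from -11.42 for Krt33a to -1.10 for Hoxc13. Blastema fibroblast markers summed to 14923 to 29062 CPM in the wild type libraries and 2147 to 7766 CPM in mutants, with 8 of 10 lower and 2 not passing. In mutants most of that sum was Col1a1 and Col3a1, at means of 3161 and 1872 CPM. Lrrc15 fell from a mean of 6877 CPM in wild type to 92.6 CPM in mutants, Mest from 42.9 to 5.18 CPM and Msx1 from 39.3 to 9.38 CPM. The sum does not tell how much of the mutant tissue was blastema. Osteoblast markers ran from 6765 to 12634 and from 1155 to 5067 CPM (5 of 7 lower), a sum made up mostly of Col1a1 (mean 10075 CPM in wild type and 3161 CPM in mutants), which the fibroblast list also holds. Endothelial markers ran from 181 to 226 and from 37.4 to 70.3 CPM (8 of 8 lower). Neutrophil markers summed to 5.31 to 15.1 CPM in the wild type libraries and 41.8 to 622 CPM in mutants (3 of 3 tested higher). Most of that sum was S100a8 and S100a9, at means of 114 and 163 CPM in mutants, genes that keratinocytes are also known to express; Csf3r stood at 1.4 CPM, and Ly6g and Mpo, near 0, were too rare to test. Melanocyte markers summed to 0.97 to 1.24 and 6.37 to 52.3 CPM (5 of 5 higher, with Tyr at 0 in wild type). Macrophage sums overlapped, at 51.7 to 69 and 28.9 to 85.4 CPM (3 of 5 lower), and Schwann sums were 34.7 to 43.4 and 48.4 to 64.8 CPM (1 of 5 higher). The part of these shifts in the Wnt results was not tested. In bulk tissue, fewer cells of a type and less RNA per cell cannot be told apart.

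In mutants, genes at both ends of the pathway were lower: the transcription factor Lef1, the R-spondins Rspo2, Rspo4 and Rspo3, the antagonists Frzb, Dkk1, Sfrp2, Notum and Dkk2, the feedback genes Nkd1, Nkd2 and Axin2, and the ligands Wnt9b, Wnt11, Wnt2b and Wnt3. A smaller group was higher, led by the ligands Wnt7b and Wnt10b and including the receptors Fzd10, Lrp5 and Lgr6 and the factor Tcf7l1. Of the 57 members, 55 had enough counts to be tested and Wnt1 and Wnt8a did not, with at most 4 counts in any group. Over both days, 26 members were lower and 8 higher by edgeR's quasi-likelihood test (adjusted p under 0.05 over 20216 genes), and 21 did not pass. Over all genes tested, 22.2% were lower and 21.5% higher. The median log2 fold change of the tested members was -0.41, against 0.02 over all genes. On the TPM scale, where the median over all genes moved to 0.14 (pseudocount 1), 14 members were lower and 11 higher, beside 13.1% and 33.4% of all genes, and the members' median was -0.07. The 12 members whose call was lost there, with either pseudocount, were Wnt3, Wnt3a, Wnt9b, Fzd1, Fzd2, Fzd3, Fzd4, Fzd6, Rspo2, Rnf43, Apcdd1 and Axin2. Wnt10a, Fzd7 and Tcf7l2, which did not pass by edgeR, were called higher there with either pseudocount. The count fell to 22 (17 lower, 5 higher) without wild type 12 dpa replicate 2, where 16.5% of all genes were lower and 15.8% higher. With the mutant library tagged as wild type placed in that group, 0 members passed, as did 0% of all genes in either direction, and 26 members had an unadjusted p under 0.05. Without it and wild type 14 dpa replicate 1, 27 passed (21 lower, 6 higher), against 15.4% and 13.9% of all genes. With male libraries alone 14 passed (11 lower, 3 higher), against 10.6% and 6.47%: Wnt2b, Wnt7b, Wnt11, Fzd1, Rspo3, Rspo4, Lgr6, Frzb, Dkk1, Dkk2, Nkd1, Lef1, Tcf7 and Tcf7l1.

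**Figure D1:**
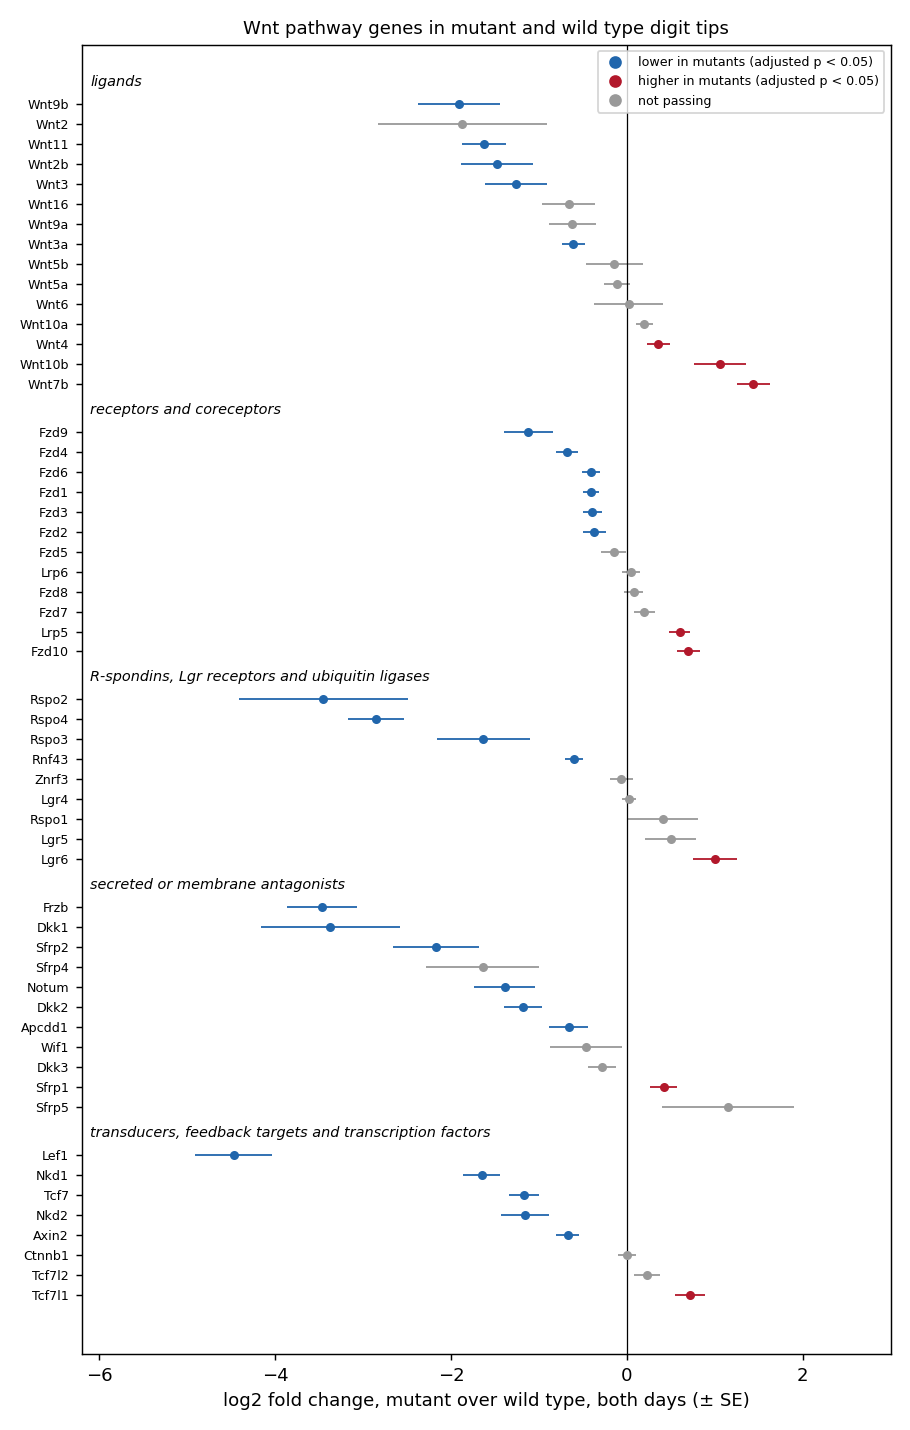
Log2 fold change of mutant over wild type across both days (x axis, points with ± SE) for the 55 tested members, listed by role. Blue points were lower and red points higher at an adjusted p under 0.05, and grey points did not pass. Lef1 lies farthest to the left at -4.47 and Wnt7b farthest to the right among the called members at 1.44.

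On each day alone fewer members passed. At 12 dpa 11 were lower and 2 higher, against 9.34% and 7.18% of all genes, and at 14 dpa 17 were lower and 4 higher, against 17.2% and 16.1%. The days share no libraries: 50 of 55 members had the same sign on both, all 34 members called over both days among them, and 9 members were called on both days in the same direction. In 18 members every mutant library lay below every wild type library of its day on both days, and in 4 every one lay above, against 19.3% and 18% of all genes. Without either wild type 12 dpa library fewer members passed at 12 dpa. The same held at 14 dpa without wild type replicate 2, or without the replicate 1 libraries of both genotypes. These fits leave 1 wild type library on the day, and the share of all genes passing in them is not given. Lef1 at 12 dpa gave a log2 fold change of -4.78 without wild type replicate 1 and -3.31 without replicate 2. At 14 dpa it gave -3.64 without wild type replicate 2 and -5.09 without both replicate 1 libraries.

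Members that fell together were looked at for the letters that Tcf and Lef proteins are known to bind. RefSeq promoter windows, 250 bases before to 50 after a start on build GRCm38.p6, were given for 38 members in 48 windows. The letters searched, on either strand, were CTTTGAA, its variant CTTTGAT, then those ending otherwise, namely CTTTGTA as well as CTTTGTT. They were present in 7 of 48 member windows, 14.6%, against 16.9% of all 32851 windows, and in 4 of 25 windows of the members that were lower, 0 of 5 of those higher and 3 of 17 of those not passing. The 4 windows of lower members with a match are shown, with the match in capitals and each sequence running 5′ to 3′ along the gene.
Lef1, chr3:131156044-131156343, plus strand: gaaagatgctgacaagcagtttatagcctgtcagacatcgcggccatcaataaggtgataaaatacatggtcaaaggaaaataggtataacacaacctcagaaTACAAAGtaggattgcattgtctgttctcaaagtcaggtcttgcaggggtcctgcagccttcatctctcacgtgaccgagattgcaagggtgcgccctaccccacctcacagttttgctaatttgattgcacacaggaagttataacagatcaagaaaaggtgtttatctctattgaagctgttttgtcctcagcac
Dkk1, chr19:30549447-30549746, minus strand: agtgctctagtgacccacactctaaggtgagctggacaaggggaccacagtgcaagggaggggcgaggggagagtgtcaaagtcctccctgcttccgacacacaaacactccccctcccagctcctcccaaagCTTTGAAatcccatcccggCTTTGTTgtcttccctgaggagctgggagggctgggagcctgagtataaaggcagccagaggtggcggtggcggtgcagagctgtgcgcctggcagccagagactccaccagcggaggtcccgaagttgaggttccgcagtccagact
Wnt11, chr7:98834862-98835161, plus strand: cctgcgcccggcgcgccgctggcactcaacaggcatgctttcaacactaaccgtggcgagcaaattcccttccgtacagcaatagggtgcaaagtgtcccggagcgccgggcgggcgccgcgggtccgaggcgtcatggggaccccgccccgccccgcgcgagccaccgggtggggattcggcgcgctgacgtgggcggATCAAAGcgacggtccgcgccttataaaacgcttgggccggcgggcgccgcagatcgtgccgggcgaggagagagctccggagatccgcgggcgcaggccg
Wnt3, chr11:103773925-103774224, plus strand: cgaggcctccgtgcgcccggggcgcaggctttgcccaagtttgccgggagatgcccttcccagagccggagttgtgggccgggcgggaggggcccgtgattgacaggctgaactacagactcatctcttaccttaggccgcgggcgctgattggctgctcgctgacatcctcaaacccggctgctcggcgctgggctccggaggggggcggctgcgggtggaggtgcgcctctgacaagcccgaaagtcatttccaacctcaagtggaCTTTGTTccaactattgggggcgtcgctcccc
The Lef1 window belongs to 1 of 4 listed starts of the gene, and the Dkk1 window holds 2 matches. Wnt11 has another listed start, whose window held no match. Windows of Axin2, Nkd1, Tcf7 and Rspo4 held none of these letters, which describes these stretches alone. A match is a description of the sequence, not a bound site.

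Among the ligands, 5 of 15 tested were lower in mutants, 3 were higher and 7 did not pass, with a median log2 fold change of -0.61. Of all genes tested, 22.2% were lower and 21.5% higher. Wnt7b, an epithelial ligand, was the ligand with the largest rise. It stood at 22.7 and 22.5 CPM in the wild type libraries and at 39, 81.2 and 54.4 CPM in the mutant libraries at 12 dpa, and at 26.4 and 30.2 CPM against 94, 69.6 and 80.9 CPM at 14 dpa. All mutant libraries were above all wild type libraries of their day, and the log2 fold change over both days was 1.44 (SE 0.19, adjusted p = 0.000652), 1.36 at 12 dpa and 1.53 at 14 dpa. Wnt10b, a ligand of skin appendages, rose from 4.93 ± 1.12 CPM in wild type (SD, n = 4) to 10.3 ± 3.52 CPM in mutants (SD, n = 6), a log2 fold change of 1.06 (adjusted p = 0.0205) with overlap between the genotypes. Its adjusted p ran from 0.0026 to 0.0887 over the omissions of single libraries and missed the threshold without wild type 12 dpa replicate 1, wild type 12 dpa replicate 2 or wild type 14 dpa replicate 2.

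Wnt11, a ligand best known for β-catenin-independent signalling, fell on both days. Its levels were 6.08 and 7.87 CPM in the wild type libraries and 2.32, 1.73 and 1.22 CPM in the mutant libraries at 12 dpa, and 6.62 and 4.8 CPM against 1.48, 3.37 and 2.32 CPM at 14 dpa. The groups did not overlap, and the log2 fold change came to -1.62 (SE 0.25, adjusted p = 0.00121). Wnt2b stood at 2.78 and 3.51 CPM against 1.05, 1.05 and 0.839 CPM at 12 dpa, and at 2.66 and 1.49 CPM against 0.339, 1.71 and 0.486 CPM at 14 dpa, where mutant replicate 2 lay within the wild type range. Its log2 fold change was -1.48 (SE 0.41, adjusted p = 0.0168), and the adjusted p was 0.056 without wild type 12 dpa replicate 2 and 0.0687 without wild type 14 dpa replicate 1, within a range of 0.000593 to 0.0687 over the single omissions.

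Wnt3 and Wnt9b shared a split within wild type. Wnt3 stood at 10.2 and 23.4 CPM in the wild type libraries and at 4.49, 4.87 and 8.46 CPM in the mutant libraries at 12 dpa, and at 7.89 and 21.4 CPM against 6.05, 6.27 and 9.51 CPM at 14 dpa. The wild type replicate 2 libraries were 2.29 and 2.71 times the replicate 1 libraries of their days, and at 14 dpa wild type replicate 1 lay among the mutants. The log2 fold change of Wnt3 was -1.26 (SE 0.35, adjusted p = 0.0186). Wnt9b was rarer, at 0.313 and 0.871 CPM against 0.146, 0.181 and 0.179 CPM at 12 dpa and 0.248 and 0.733 CPM against 0.0651, 0.0795 and 0.222 CPM at 14 dpa. Its groups did not overlap, with a log2 fold change of -1.91 (SE 0.47, adjusted p = 0.00963). Both calls were lost without wild type 12 dpa replicate 2 (adjusted p = 0.0877 for Wnt3 and 0.0559 for Wnt9b) or without wild type 14 dpa replicate 2 (0.0715 and 0.0545), while over the single omissions the adjusted p started at 0.00975 and 0.00692. Of the 55 tested members, 6 were at least 1.5 times higher in replicate 2 than in replicate 1 of wild type on both days (Wnt3, Wnt6, Wnt9b, Rspo2, Apcdd1 and Lef1), and 0 were so in the opposite direction. The share of all genes with such a split was not computed. These numbers follow the titles. By the descriptions, which exchange the wild type numbers at 14 dpa, the higher library of that day would be replicate 1.

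The most abundant ligand by TPM was Wnt4, at 19 ± 4.66 TPM (SD, n = 4) in wild type, next to Wnt5a at 18.1 ± 3.85 TPM, a difference within their spread. Wnt10a followed at 10.5 ± 2.26 TPM and Wnt7b at 5.9 ± 0.998 TPM, and the other ligands were below 4 TPM. In counts, Wnt4 was at 118 and 113 CPM in the wild type libraries and 118, 168 and 128 CPM in the mutant libraries at 12 dpa, and at 95.3 and 111 CPM against 148, 116 and 161 CPM at 14 dpa. It passed with a log2 fold change of 0.36 (SE 0.13, adjusted p = 0.0483) and overlap at 12 dpa; 8 of 10 omissions of a single library ended the call, with adjusted p from 0.0213 to 0.155. Wnt3a fell from 8.04 ± 1.11 to 5.39 ± 1.5 CPM (log2 fold change -0.61, adjusted p = 0.00549), a call lost on the TPM scale (limma adjusted p = 0.147 with a pseudocount of 1) and in male libraries (0.141). Wnt5a, a ligand of limb outgrowth, gave -0.11 (SE 0.15, adjusted p = 0.566), and Wnt10a, in which mutations affect nails and teeth, gave 0.20 (SE 0.10, adjusted p = 0.131). The others that did not pass were Wnt2, Wnt5b, Wnt6, Wnt9a and Wnt16, from -1.87 for Wnt2 to 0.02 for Wnt6.

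The makeup of the ligand pool differed between the genotypes. Summed TPM of the 17 ligands was 52.9 to 91.2 in wild type and 85.4 to 132 in mutants, a sum that moves with the share of TPM taken by noncoding RNA. Within it Wnt7b took 6.79% to 9.73% in wild type and 13.3% to 23.4% in mutants. Wnt11 took 3.74% to 5.71% and 0.772% to 2.41%, while Wnt4 took 23.5% to 27.2% and 24.2% to 30.8%, with overlap.

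**Figure D2:**
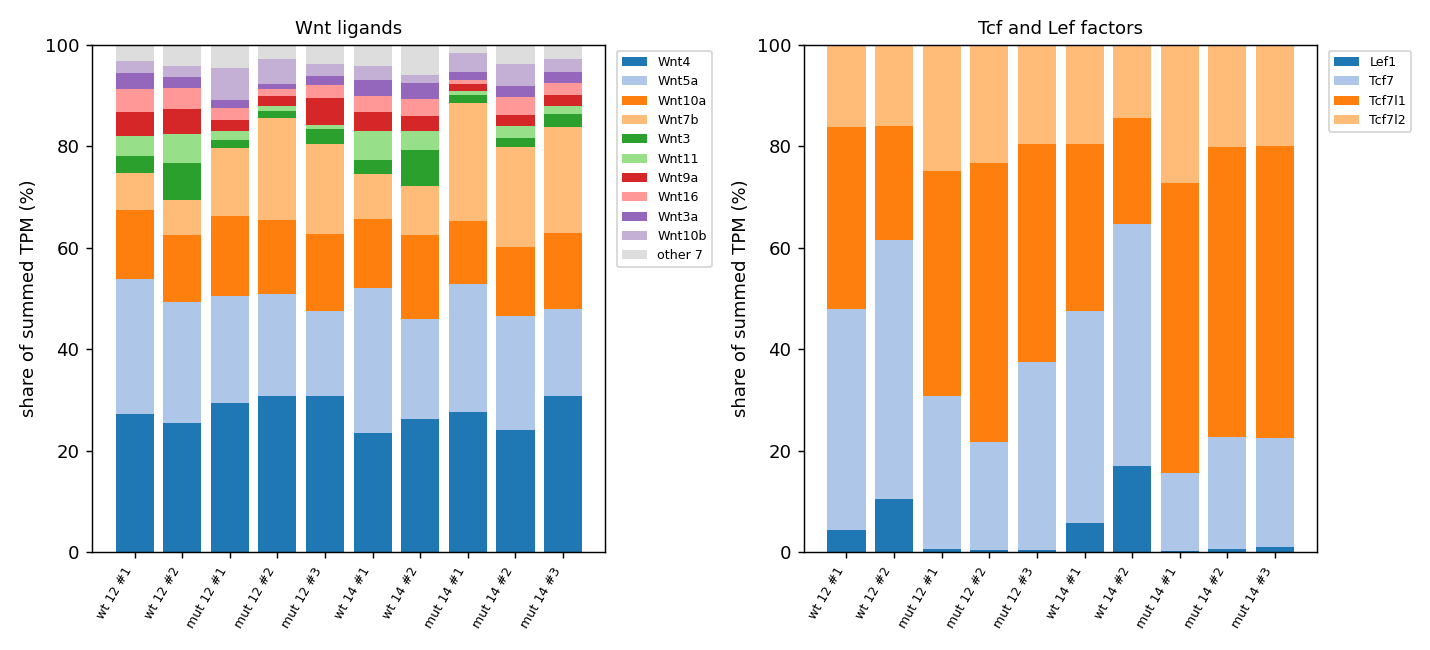
Share of summed TPM (y axis, percent) of each Wnt ligand (left) and each Tcf or Lef factor (right) in the 10 libraries, labelled by genotype, dpa and replicate. Wnt7b fills 13.3% to 23.4% of the ligand bars in mutants and at most 9.73% in wild type, and Lef1 fills 4.42% to 17% of the factor bars in wild type and at most 1.11% in mutants.

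Of the 12 receptors and coreceptors, 6 were lower, 2 were higher and 4 did not pass, with most changes under 2-fold and a median log2 fold change of -0.26. The shares over all genes were 22.2% lower and 21.5% higher. Fzd9 was the receptor with the largest fall and the least abundant by TPM. It stood at 0.531 and 1.03 CPM in the wild type libraries and at 0.281, 0.22 and 0.179 CPM in the mutant libraries at 12 dpa, and at 0.511 and 0.506 CPM against 0.286, 0.428 and 0.389 CPM at 14 dpa. The groups did not overlap, and the log2 fold change came to -1.12 (SE 0.28, adjusted p = 0.0102); without wild type 12 dpa replicate 2 the adjusted p was 0.0574, the highest over the single omissions, of which the lowest was 0.00856. Fzd4, a receptor also of the vascular ligand Norrin, was at 11.2 and 15 CPM against 7.93, 7.73 and 10.5 CPM at 12 dpa and 11.1 and 13.6 CPM against 7.36, 7.71 and 6.62 CPM at 14 dpa. It did not overlap, at -0.68 (SE 0.13, adjusted p = 0.00326). The endothelial marker sums did not overlap either, nor did those of several other cell types, and their part was not tested.

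The receptors that rose were Fzd10 and Lrp5. Fzd10 was at 8.52 and 9.54 CPM in the wild type libraries and 12.3, 16.4 and 10.9 CPM in the mutant libraries at 12 dpa, and at 8.61 and 7.75 CPM against 13.4, 15.7 and 14.8 CPM at 14 dpa. Its log2 fold change was 0.70 (SE 0.13, adjusted p = 0.00243). Lrp5, a coreceptor, was at 114 and 134 CPM against 164, 176 and 199 CPM at 12 dpa and at 107 and 114 CPM against 214, 152 and 156 CPM at 14 dpa, with a log2 fold change of 0.60 (SE 0.12, adjusted p = 0.00367). In both genes every mutant library lay above every wild type library of its day. The other coreceptor, Lrp6, gave 0.05 (SE 0.10, adjusted p = 0.732).

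Fzd6, a receptor in which mutations cause nail dysplasia, had the highest level of the class in wild type at 26.1 ± 6.62 TPM, while in mutants Lrp5 led at 31.5 ± 8.17 TPM. In counts Fzd6 was at 109 and 121 CPM in the wild type libraries and 92.1, 92.9 and 87.3 CPM in the mutant libraries at 12 dpa, and at 102 and 148 CPM against 90.7, 89.1 and 90 CPM at 14 dpa. Its log2 fold change was -0.41 (SE 0.10, adjusted p = 0.0101), without overlap. Fzd1 stood at 68.5 and 75.5 CPM against 52.2, 54.2 and 58.4 CPM at 12 dpa and at 74.9 and 68 CPM against 49, 61.9 and 48.9 CPM at 14 dpa, also at -0.41 (SE 0.09, adjusted p = 0.00602). Fzd3 (-0.39, adjusted p = 0.0156) and Fzd2 (-0.37, adjusted p = 0.0497) were lower with overlap. The Fzd2 call was lost in 8 of 10 single omissions (adjusted p 0.0137 to 0.197), and Fzd3 was lost without wild type 12 dpa replicate 2 (0.0658, in a range from 0.00711). On the TPM scale Fzd1, Fzd2, Fzd3, Fzd4 and Fzd6 kept their sign and did not pass. By edgeR, Fzd5, Fzd7 and Fzd8 ran from -0.15 to 0.20 and did not pass.

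In the R-spondin module, 4 of 9 members were lower, 1 was higher and 4 did not pass, beside 22.2% of all genes lower and 21.5% higher. Rspo2, Rspo3 and Rspo4 fell, and the ligand Rspo1 did not pass. Rspo4, the R-spondin whose loss in humans leaves the nails missing, stood at 1.34 and 2.45 CPM in the wild type libraries and 0.439, 0.207 and 0.649 CPM in the mutant libraries at 12 dpa, and at 5.09 and 4.5 CPM against 0.299, 0.547 and 0.347 CPM at 14 dpa. The groups did not overlap and were farthest apart at 14 dpa. The log2 fold change came to -2.85 (SE 0.32, adjusted p = 0.00027), -2.12 at 12 dpa and -3.58 at 14 dpa, beside the lower sums of nail and hard keratin markers, whose part was not tested. Wild type Rspo4 was higher at 14 than at 12 dpa by 1.34 on the log2 scale, which did not pass (adjusted p = 0.578).

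Rspo2, a limb R-spondin, was rare in all libraries. It was at 0.0681 and 0.204 CPM in the wild type libraries and 0, 0.0388 and 0.157 CPM in the mutant libraries at 12 dpa, and at 0.146 and 1.4 CPM against 0.013, 0.0199 and 0 CPM at 14 dpa. Wild type 14 dpa replicate 2 held most of the 146 wild type counts of that day, where the mutants had 3 in all, a ratio of 73.4 (95% counting interval 24.6 to 360, counting error only). The log2 fold change over both days was -3.45 (SE 0.96, adjusted p = 0.0174), and it was -2.28 without wild type 14 dpa replicate 2 and -4.33 without mutant 12 dpa replicate 3. Without that wild type library the adjusted p was 0.111 and without wild type 12 dpa replicate 2 it was 0.094, in a range from 0.00878. Rspo3 was at 1.16 and 1.96 CPM against 0.687, 0.233 and 0.38 CPM at 12 dpa and at 1.11 and 1.3 CPM against 0.0911, 0.925 and 0.305 CPM at 14 dpa, without overlap. Its log2 fold change was -1.63 (SE 0.53, adjusted p = 0.0321), it was -2.22 without mutant 14 dpa replicate 2, and 6 of 10 single omissions ended the call (adjusted p 0.00387 to 0.108), those of wild type 12 dpa replicate 2, both wild type 14 dpa libraries, mutant 12 dpa replicates 2 and 3 and mutant 14 dpa replicate 3. Rspo1, at 0.313 ± 0.0841 and 0.444 ± 0.264 CPM, did not pass (adjusted p = 0.433).

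Lgr6, an R-spondin receptor of skin epithelium, was the member of the module that rose. It stood at 6.23 and 6.11 CPM in the wild type libraries and 12.7, 11.1 and 19.5 CPM in the mutant libraries at 12 dpa, and at 4.06 and 9.68 CPM against 11.6, 11.9 and 11.7 CPM at 14 dpa. No groups overlapped within a day, and over both days the level was 2-fold higher (SE 0.25 on the log2 scale, adjusted p = 0.0103). Lgr4 was the most abundant member of the module, at 25.6 ± 4.79 TPM in wild type. It was at 170 and 174 CPM in the wild type libraries and 156, 186 and 173 CPM in the mutant libraries at 12 dpa, and at 169 and 178 CPM against 171, 197 and 172 CPM at 14 dpa. The log2 fold change of 0.03 (SE 0.08, adjusted p = 0.806) was smaller than the spread between replicates. Lgr5, a stem cell marker, gave 0.50 (SE 0.29, adjusted p = 0.191).

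The ubiquitin ligases, themselves β-catenin targets, differed in their calls. Rnf43 was at 27.2 and 28.1 CPM in the wild type libraries and 20, 18.6 and 21.8 CPM in the mutant libraries at 12 dpa, and at 25.7 and 36.3 CPM against 18, 17.7 and 20.1 CPM at 14 dpa. The groups were apart on both days, with a log2 fold change of -0.60 (SE 0.10, adjusted p = 0.00199). Rnf43 did not pass on the TPM scale (adjusted p = 0.204 by limma with a pseudocount of 1) or in male libraries (0.0574). Znrf3 overlapped, at 63.3 ± 13.8 CPM in the wild type libraries and 60.5 ± 4.22 CPM in mutants (log2 fold change -0.06, SE 0.13, adjusted p = 0.712). The difference between these fold changes was not tested.

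**Figure D3:**
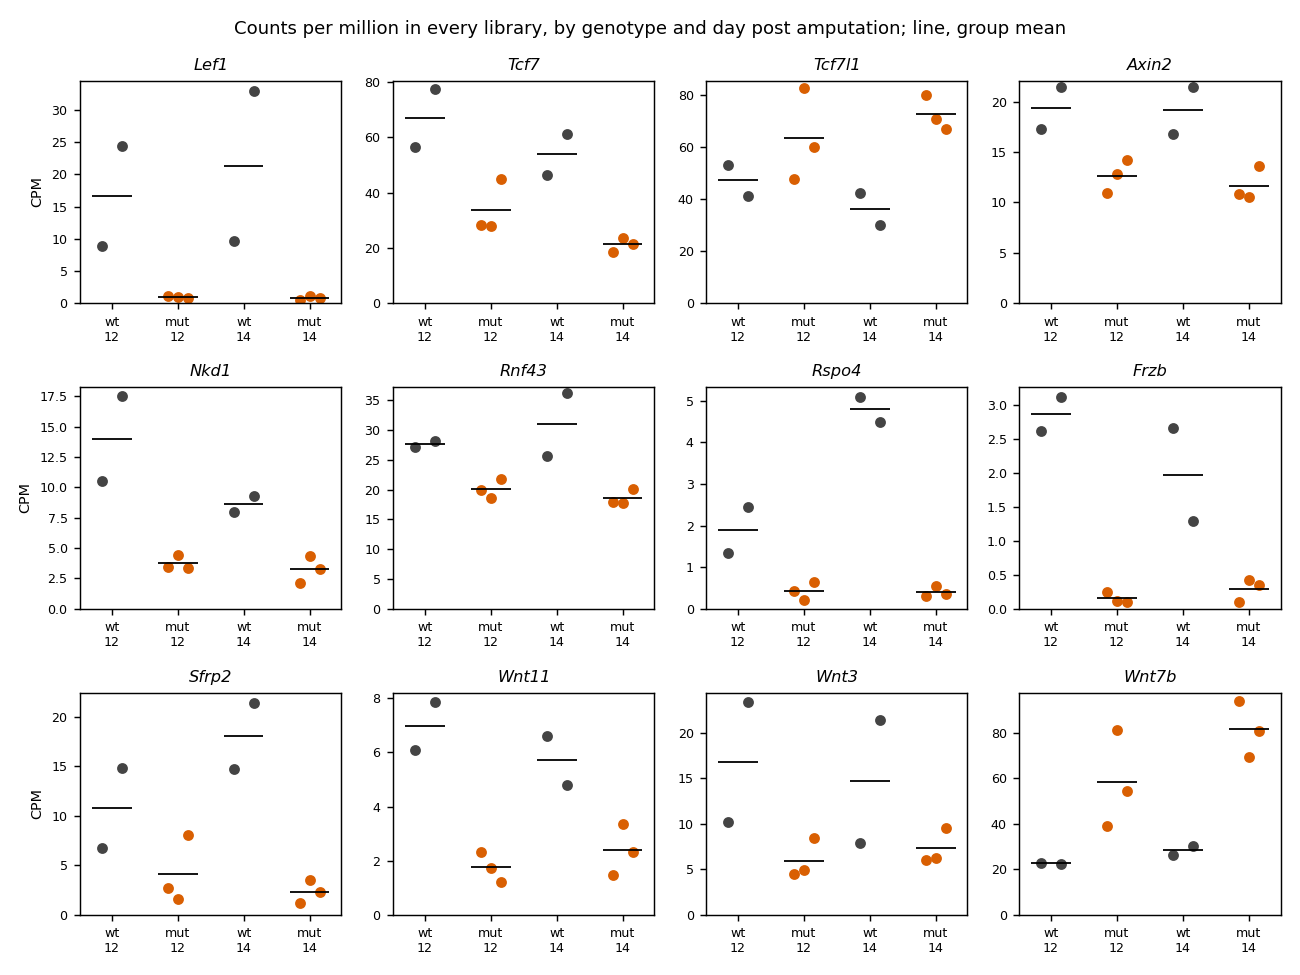
CPM (y axis, from 0, a separate scale in each panel) of 12 members in every library, by genotype and day, with a line at each group mean; grey points are wild type and orange points mutant. Lef1 lies between 8.82 and 32.9 CPM in the wild type libraries and at or below 1.1 CPM in mutants, and Wnt7b lies higher in each mutant library than in the wild type libraries of its day.

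Secreted and membrane antagonists had a median log2 fold change of -1.18 over both days, -0.49 at 12 dpa and -0.96 at 14 dpa. Over both days 6 of 11 were lower, 1 was higher and 4 did not pass, against 22.2% of all genes lower and 21.5% higher. Frzb, also called Sfrp3 and expressed in skeletal progenitors, stood at 2.62 and 3.12 CPM in the wild type libraries and at 0.248, 0.116 and 0.101 CPM in the mutant libraries at 12 dpa, and at 2.66 and 1.29 CPM against 0.104, 0.418 and 0.347 CPM at 14 dpa. Every mutant library was below every wild type library, and the log2 fold change came to -3.47 (SE 0.40, adjusted p = 0.000303). Sfrp2, a fibroblast product, was at 6.72 and 14.8 CPM against 2.68, 1.59 and 8.03 CPM at 12 dpa, where mutant replicate 3 lay within the wild type range, and at 14.7 and 21.4 CPM against 1.18, 3.48 and 2.28 CPM at 14 dpa. Its log2 fold change was -2.17 (SE 0.49, adjusted p = 0.00827). The blastema fibroblast marker sum was lower in the same libraries, and its part was not tested.

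Dkk1, which blocks Lrp5 and Lrp6, was close to the limit of detection in mutants. It was at 0.899 and 0.49 CPM in the wild type libraries and 0.113, 0.0129 and 0.0112 CPM in the mutant libraries at 12 dpa, and at 0.511 and 0.475 CPM against 0, 0.169 and 0.0139 CPM at 14 dpa, without overlap. The log2 fold change came to -3.37 (SE 0.79, adjusted p = 0.00822), leaving out mutant 12 dpa replicate 1 gave -4.28 and leaving out mutant 14 dpa replicate 2 gave -4.88. Dkk2 stood at 9.51 and 8.95 CPM against 3.45, 3.64 and 3.49 CPM at 12 dpa and at 12.9 and 9.51 CPM against 3.42, 8.44 and 5.33 CPM at 14 dpa. It also did not overlap, at -1.18 (SE 0.22, adjusted p = 0.0025). Dkk3, the most abundant antagonist at 18.6 ± 4.33 TPM in wild type, was at 81.9 and 94.3 CPM against 57.2, 57.4 and 82.4 CPM at 12 dpa and 85.8 and 78.8 CPM against 59.8, 97.3 and 66.4 CPM at 14 dpa. Its groups overlapped, and the log2 fold change of -0.28 (SE 0.16) did not pass (adjusted p = 0.171).

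Notum, an enzyme that removes the lipid from Wnt proteins, is itself a feedback target. The difference of its genotype contrasts between the days did not pass (-2.31, SE 0.72, adjusted p = 0.544 by edgeR). Taken by day, Notum passed at 14 dpa and not at 12 dpa. It was at 1.08 and 1.47 CPM in the wild type libraries and 0.799, 1.06 and 1.38 CPM in the mutant libraries at 12 dpa, and at 1.75 and 5.02 CPM against 0.352, 0.885 and 0.486 CPM at 14 dpa. The genotypes overlapped at 12 dpa and not at 14 dpa, where the log2 fold change was -2.55 (adjusted p = 0.00656). Over both days it was -1.39 (SE 0.35, adjusted p = 0.0106), and without wild type 14 dpa replicate 2 it was -0.95 with an adjusted p of 0.0572, in a range from 0.00579.

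Apcdd1, a membrane inhibitor expressed in hair follicles, was lower at -0.66 (SE 0.22, adjusted p = 0.0392), from 38.8 ± 15.2 CPM in wild type to 24.5 ± 3.02 CPM in mutants; 7 of 10 single omissions ended that call (adjusted p 0.00497 to 0.165). Sfrp1 was the antagonist that rose, from 25.8 ± 2.63 to 34.5 ± 6.49 CPM (log2 fold change 0.42, SE 0.15, adjusted p = 0.042), with 8 of 10 single omissions ending the call (0.0148 to 0.145). Together with the fall of Sfrp2 and Frzb, this left Sfrp1 at 61.5% to 88.8% of the summed TPM of the 5 Frizzled-related proteins in mutants and at 32.1% to 47.8% in wild type. Wif1 (-0.46, adjusted p = 0.392), Sfrp4 (-1.64, adjusted p = 0.066) and Sfrp5 (1.15, adjusted p = 0.241) did not pass. Sfrp5 was nearly unread, with 3 wild type and 21 mutant counts at 14 dpa.

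Inside the cell, 5 of the 8 transducers, feedback targets and transcription factors were lower, 1 was higher and 2 did not pass. All genes gave 22.2% lower and 21.5% higher. Lef1, the β-catenin partner that is itself induced by the pathway, changed the most of all 55 members. It stood at 8.82 and 24.4 CPM in the wild type libraries and at 1.08, 0.879 and 0.694 CPM in the mutant libraries at 12 dpa, and at 9.67 and 32.9 CPM against 0.482, 1.1 and 0.819 CPM at 14 dpa. The lowest wild type library was several times above the highest mutant, although the wild type pairs themselves differed 2.77 and 3.4 times. The log2 fold change came to -4.47 (SE 0.44, adjusted p = 0.00023), -4.23 at 12 dpa and -4.72 at 14 dpa, and over the single omissions it stayed between -4.79 and -3.93.

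Of the 3 Tcf genes, Tcf7 fell, Tcf7l1 rose and Tcf7l2 did not pass. Tcf7, the other factor of the family that acts mainly as an activator, was at 56.6 and 77.5 CPM in the wild type libraries and 28.2, 27.8 and 45.1 CPM in the mutant libraries at 12 dpa, and at 46.4 and 61.3 CPM against 18.6, 23.5 and 21.5 CPM at 14 dpa. Its groups did not overlap, with a log2 fold change of -1.17 (SE 0.17, adjusted p = 0.000798). Tcf7l1, which acts mainly as a repressor, was at 52.9 and 41.2 CPM against 47.6, 82.6 and 59.9 CPM at 12 dpa and at 42.3 and 29.9 CPM against 79.9, 70.8 and 66.8 CPM at 14 dpa, with overlap at 12 dpa. It rose by 0.72 (SE 0.17, adjusted p = 0.00815). Tcf7l2 gave 0.23 (SE 0.15, adjusted p = 0.22). Of the summed TPM of the 4 factors, Tcf7l1 took 20.8% to 35.7% in wild type and 42.9% to 57.5% in mutants, Tcf7 41.7% to 51% and 15.3% to 37.1%, and Lef1 4.42% to 17% and 0.248% to 1.11%. The shares of all 3 were apart between the genotypes.

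The feedback genes Nkd1, Nkd2 and Axin2, which the pathway induces and which restrain it, were all lower. Nkd1 was at 10.5 and 17.5 CPM in the wild type libraries and 3.43, 4.45 and 3.33 CPM in the mutant libraries at 12 dpa, and at 7.98 and 9.3 CPM against 2.16, 4.38 and 3.29 CPM at 14 dpa (log2 fold change -1.65, SE 0.21, adjusted p = 0.000496). Nkd2 was at 32.4 and 24.2 CPM against 7.97, 19.4 and 7.74 CPM at 12 dpa and at 30.1 and 21.5 CPM against 11.4, 12 and 14.3 CPM at 14 dpa (-1.16, SE 0.27, adjusted p = 0.00846). Axin2, the most used readout of β-catenin activity, fell from 19.3 ± 2.54 CPM in wild type (SD, n = 4) to 12.1 ± 1.6 CPM in mutants (SD, n = 6), a log2 fold change of -0.67 (SE 0.13, adjusted p = 0.00265). None of the 3 genes overlapped on either day. On the TPM scale Axin2 kept its sign and did not pass (adjusted p = 0.085 with a pseudocount of 1).

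Ctnnb1, which encodes β-catenin, was the most abundant member at 142 ± 32.3 TPM in wild type. It was at 608 and 646 CPM in the wild type libraries and 580, 679 and 588 CPM in the mutant libraries at 12 dpa, and at 589 and 714 CPM against 629, 665 and 696 CPM at 14 dpa. The groups overlapped, and the log2 fold change came to 0.00 (SE 0.10, adjusted p = 0.998). RNA level says nothing of the protein, whose stability is the step that the pathway controls.

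No member passed for the difference of the genotype contrasts between the days (0 of 55, against 0% of all genes), for 14 against 12 dpa in wild type (0, against 0%) or in mutants (0, against 0.0346%). By edgeR at an unadjusted p under 0.05 there were 3, 3 and 4, and DESeq2 called 0, 0 and 2, the last being Wnt3a (0.68, DESeq2 adjusted p = 0.01) and Tcf7 (-0.66, DESeq2 adjusted p = 0.0492). The 3 for the day difference were Notum (-2.31, SE 0.72, adjusted p = 0.544), Rspo2 (-4.84, SE 1.99, adjusted p = 0.554) and Fzd9 (1.32, SE 0.57, adjusted p = 0.562).

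**Figure D4:**
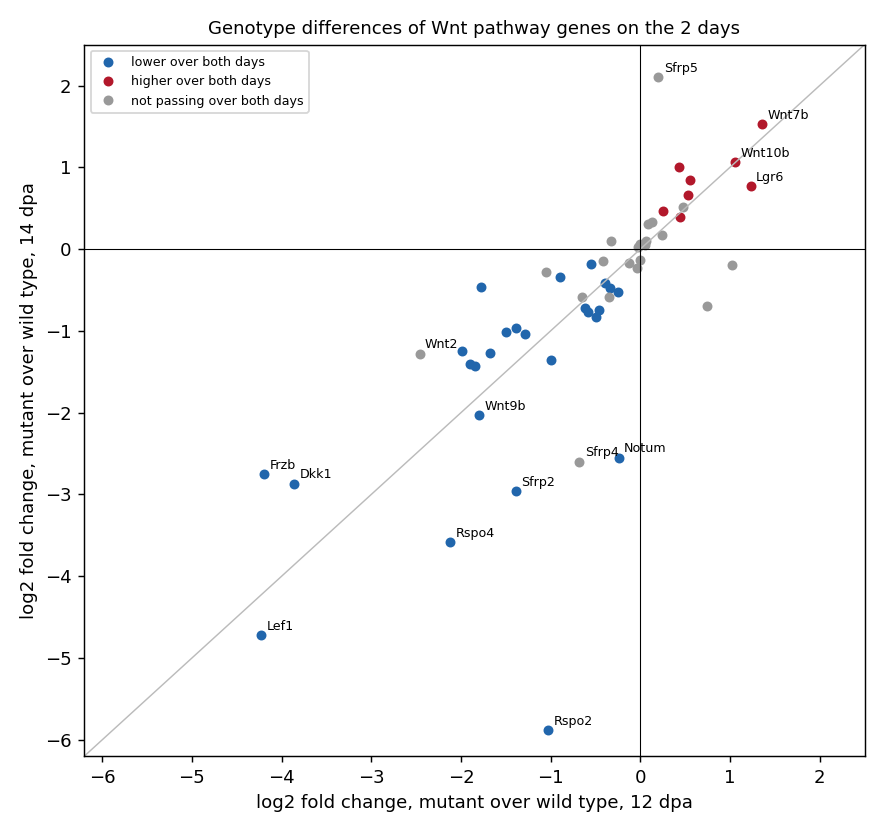
Log2 fold change of mutant over wild type at 12 dpa (x axis) and 14 dpa (y axis) for the 55 tested members, coloured by the call over both days; the diagonal marks equal values. All 34 called members lie in the lower left or upper right quadrant, and Rspo2 and Notum lie farthest below the diagonal.

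Beyond the members, 77 other genes of the pathway were listed and 73 tested: 24 were lower, 19 higher and 30 did not pass, with a median log2 fold change of 0.04. On the TPM scale the split was 13 lower and 28 higher, where 13.1% of all genes were lower and 33.4% higher. Of 17 tested genes reported as transcriptional targets, 11 were lower and 2 higher (median -0.72), and of 28 genes of signal transduction and secretion 4 were lower and 9 higher (median 0.09), where all genes gave 22.2% lower and 21.5% higher; the groups were not tested against each other. Of 14 other antagonists and feedback genes 6 were lower and 3 higher, and of 14 genes of non-canonical reception and planar polarity 3 were lower and 5 higher.

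The other pathway genes with the largest falls were Sost, Sall4, Tnfrsf19 and Bmp4. Sost, an osteocyte antagonist of Lrp5 and Lrp6, fell from 0.37 ± 0.321 to 0.0538 ± 0.0564 CPM (log2 fold change -2.53, adjusted p = 0.0313) with overlap, and Sall4, a limb bud factor, from 0.171 ± 0.0726 to 0.0496 ± 0.0432 CPM (-1.92, adjusted p = 0.02). Tnfrsf19, a receptor also called Troy, fell from 73.6 ± 35.8 to 19.1 ± 3.74 CPM (-1.90, adjusted p = 0.000401), and Bmp4, a growth factor of the digit tip, from 12.1 ± 1.05 to 3.43 ± 0.942 CPM (-1.82, adjusted p = 0.000341). The largest rises were those of Dkkl1, from 27.6 ± 8.79 to 78.2 ± 24.2 CPM (1.47, adjusted p = 0.000639), Ctnnbip1, whose protein keeps β-catenin from Tcf factors, from 179 ± 53.6 to 401 ± 117 CPM (1.12, adjusted p = 0.00164), Axin1, the scaffold of the β-catenin destruction complex, from 42.1 ± 0.929 to 68.5 ± 8.55 CPM (0.70, adjusted p = 0.0005), and Gpc4, a glypican, from 33.6 ± 3.35 to 51.3 ± 2.74 CPM (0.61, adjusted p = 0.000733). Axin1 and its induced relative Axin2 stood on opposite sides, each without overlap between the genotypes.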

How the data were processed

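Total RNA was prepared with Illumina's stranded kit, per the labels' protocols, and the series design calls the libraries of a group biological replicates. STAR 2.7.8a, RSEM 1.3.0, FastQC and build GRCm39 stand in the submitters' processing notes, with no role given. The authors deposited expected counts per gene, not normalized, of which 13.9% were not whole, and TPM values, scaled by gene length to a fixed total per library, with a table of the TPM of 21729 protein-coding genes. How strand was handled by the counter is not stated.

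Groups came from the titles. The 14 dpa wild type libraries have their numbers exchanged between title and description; replicate numbers here follow the titles. Expected counts were rounded and tested with edgeR 4.0.16 (R 4.3.3): filterByExpr (minimum count 10, minimum total 15) kept 20216 genes, TMM factors scaled the libraries, and all 10 libraries entered 1 quasi-likelihood fit with robust dispersion (common dispersion 0.0767) and no covariate. Benjamini-Hochberg adjustment ran over all tested genes (threshold 0.05), and an adjusted p with no tool named is from this edgeR test. No label names the animals, so p-values measure the spread between these libraries. CPM use TMM-scaled library sizes, SDs are over libraries, and TPM is used to compare genes. TPM comparisons of genotype used limma 3.58.1 on log2(TPM + 1) and log2(TPM + 0.1). The steps were tested on simulated data. Replicates differed beyond counting noise (chi-square per degree of freedom 114.2 to 223.0). Sex came from the summed counts of the Y-linked genes Ddx3y, Uty, Kdm5d and Eif2s3y, with at least 500 read as male.

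Full per-library values are given, in each class, for up to 5 members that passed over both days, by size of change, and the member with the highest mean TPM; of other pathway genes the 4 largest changes each way are named. Axin2 and the members named by group means fall outside the first rule. The members, lists and rules were chosen with earlier results of these data known. Promoter sequences are from RefSeq on GRCm38.p6, matched by symbol for 38 members; no coordinates were joined to the GRCm39 files. Alternatives were other normalizations, DESeq2 1.42.0, the TPM scale, no filter and a filter of 50 counts in 2 libraries, a replicate block, sex, the genotype tag, and leaving out each library; 2 were added after seeing the data.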

Additional observations from a re-analysis of the deposited data

How the results depend on the processing

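Moving the mutant library of the wild type tag to the wild type group left 0 members past the threshold over both days (26 at an unadjusted p under 0.05), 0 at 12 dpa (19) and 0 at 14 dpa (8), and 0 of the other pathway genes (28). Male libraries alone, which were tried after the data were seen, gave 14 over both days, 1 at 12 dpa (Lef1), 3 at 14 dpa (Lef1, Rspo4 and Wnt2b) and 25 other pathway genes. Without mutant replicate 1 and wild type replicate 1 of 14 dpa together, also an added choice, 27 members passed over both days and 8 at 14 dpa. DESeq2 gave 20 at 12 dpa and 2 for 14 against 12 dpa in mutants, and limma on log2(TPM + 1) gave 13 at 14 dpa. Leaving out 1 library at a time gave 22 to 34 members over both days, 4 to 17 at 12 dpa, 7 to 23 at 14 dpa and 35 to 45 other pathway genes. The shares of all genes are not given in this section beside the counts for single days, single omissions and the other pathway genes. Those counts can move with how many of all genes pass in a setting. With a replicate block, 31 members passed over both days, beside 17.5% of all genes lower and 17% higher. The block gave 13 members at 12 dpa, 22 at 14 dpa and 36 other pathway genes, and Wnt2b, Wnt4, Fzd2, Rspo3 and Sfrp1 did not pass. Same-numbered libraries of different groups correlated at -0.12 to 0.09 over 13 pairs, as deviations from their group means. In groups of 2 these deviations mirror each other, so the correlations cannot decide whether the numbers pair the libraries. The day difference and the changes between days within a genotype gave 0 calls in every setting but that of DESeq2 in mutants.

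Of the 34 called members, 11 passed in every setting that tested them but the swapped tag (Wnt7b, Wnt11, Rspo4, Lgr6, Frzb, Dkk1, Dkk2, Nkd1, Lef1, Tcf7 and Tcf7l1), 21 passed in all 10 single omissions, and 0 changed sign in any setting. Dkk1 was tested in 21 settings and the others of the 11 in 22. Its counts were too few for the filter of 50 counts in 2 libraries. Where an omission left 1 wild type library on a day, its spread was taken from the other groups. Depth limits the rarest members: Wnt1, Wnt8a, Sfrp5, Rspo2 in mutants and Dkk1 in mutants rest on few counts.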
